A study of Mus musculus with 8 samples.

Results

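Adhesion of leukocytes rests on integrins, receptors made of an alpha and a beta chain whose hold on their ligands is switched on and off from inside the cell. In macrophages the beta chain Itgb2 pairs with Itgal to form LFA-1 and with Itgam to form Mac-1, and both receptors bind Icam1 on neighbouring cells. Cyth1 (cytohesin 1) activates small ARF GTPases and binds the inner tail of Itgb2, and Cytip is a scaffold protein of blood cells that binds Cyth1. Itga4 belongs to the integrins that bind Vcam1 and fibronectin, Pstpip2 is an F-BAR protein that binds membrane and actin in macrophages, and Tes (testin) is a LIM domain protein of focal adhesions. These 9 genes, of 18193 with a probe set of their own on the array, were followed across 4 treatments of a macrophage line. All 9 had a mean signal above 4.84 on the log2 scale, the average of all probe sets, which 8908 genes passed.

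The genes were chosen by name, with measured values in view. Cytip was selected on its opposite changes in M and LPS, Pstpip2 on its change in LPS compared to control, and Tes on its change in M compared to control. Those values are given as a description with no test. Other contrasts of these genes that reuse the same arrays have p-values that are not independent of the choice. The other 6 genes were added as the binding partner of Cytip, as integrin chains and as their ligand, also with earlier results of these arrays known.

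The 8 arrays held RNA of RAW 264.7 cells, an established mouse macrophage line, with 2 arrays in each group. LPS+M cells received menthol for 1 h and then LPS at 100 ng/ml for 6 h, LPS cells the control treatment for 1 h and then the same LPS, M cells menthol without LPS, and control cells neither agent. The sources used here give no harvest time for M and control cells, so a difference in time cannot be told apart from LPS in comparisons across that line. Both arrays of each group are labelled as biological replicates, with no word on separate cultures, so the p-values cover no more than the array-to-array spread seen here, and part of it may be technical. All values are the deposited log2 GC-RMA signals, in which 1 unit is a doubling, and levels are compared within a probe set only.

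Array medians lay between 2.99 and 3.04, and the 2 arrays of a group correlated at 0.9988 to 0.9994 across genes, which are not independent replicates. All 9 macrophage markers measured passed the filter, with a mean over the markers of 13.6 to 13.7 in LPS+M, 13.5 to 13.6 in LPS, 13.6 in M and 13.5 in control. None of the 20 measured markers of T cells, B cells, neutrophils, dendritic cells, fibroblasts, endothelium or epithelium did. Acod1, an early LPS response gene, read 10.8 and 10.7 in LPS+M, 11.1 and 11.1 in LPS, 3.64 and 3.83 in M, and 4.24 and 4.61 in control, high on the arrays labelled with LPS. Tnf and Ptgs2 were also higher there. Il1b, below the filter, read 3.15 and 3.22 in LPS+M, 5.90 and 5.41 in LPS, 3.09 and 3.08 in M, and 3.10 and 3.08 in control, so it was high in LPS only, and Nos2 lay near 1.9 on all arrays. Fewer cells expressing a gene and less RNA per cell cannot be told apart in such samples.

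Cytip carried the widest contrast of the set between menthol and LPS. On its main probe set, 1435697_a_at, Cytip read 9.02 and 8.94 in LPS+M, 7.32 and 7.47 in LPS, 11.21 and 11.23 in M, and 9.22 and 9.33 in control. The 4 groups did not overlap, with M at the top, control next, LPS+M just below control and LPS at the bottom. Cytip was 3.85-fold higher in M and 3.68-fold lower in LPS, each compared to control, which makes it 14.2-fold lower in LPS compared to M. These 3 values chose the gene.

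The contrasts that did not choose Cytip were those of LPS+M. Each still shares its LPS, M or control arrays with the choice, so the p-values are not independent of it. Cytip was 2.99-fold higher in LPS+M compared to LPS (log2 fold change 1.58 ± 0.08, standard error of the limma fit, adjusted p = 3.48e-05). It was 4.73-fold lower in LPS+M compared to M (-2.24 ± 0.08, limma adjusted p = 3.79e-06). Compared to control, LPS+M lay only 0.30 lower (-0.30 ± 0.08, limma adjusted p = 0.0188), under the 1.5-fold needed for a call. A call here means a Benjamini-Hochberg adjusted p under 0.05 over all 8908 genes and at least 1.5-fold. A second probe set of Cytip, 1451206_s_at, read 8.33 and 8.61 in LPS+M, 7.09 and 7.24 in LPS, 10.88 and 10.82 in M, and 9.11 and 9.09 in control. It kept the order of the groups, and by itself it was called lower in LPS+M compared to control (-0.63 ± 0.10, limma adjusted p = 0.00433). Another probe set, 1443928_at, stayed between 2.42 and 2.45 on all arrays, below the filter.

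**Figure D1:**
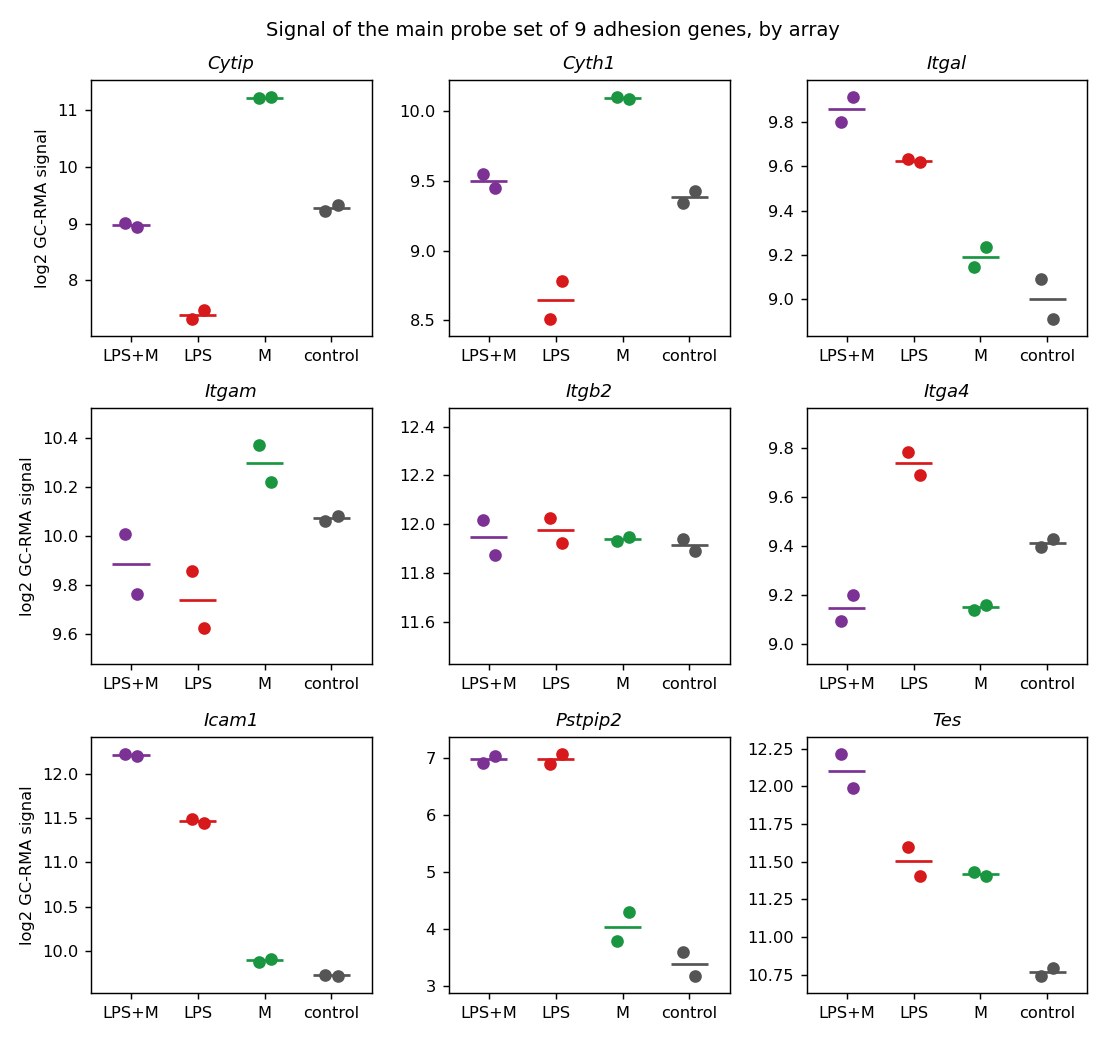
Log2 signal (vertical axis) of the main probe set of each of the 9 genes in LPS+M, LPS, M and control (horizontal axis), with 1 point per array and a bar at the group mean. Cytip and Cyth1 are highest in M and lowest in LPS, while Icam1 and Pstpip2 are high in both groups with LPS.

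Cyth1, the exchange factor that Cytip binds, was also highest in M and lowest in LPS, over a narrower range. Cyth1 read 9.55 and 9.45 in LPS+M, 8.51 and 8.78 in LPS, 10.10 and 10.09 in M, and 9.34 and 9.43 in control on probe set 1418183_a_at. LPS+M and control were the only neighbours that did not differ beyond their spread, at 0.11 ± 0.09 (limma adjusted p = 0.397, 95% interval -0.11 to 0.33). Cyth1 rose in M compared to control (0.71 ± 0.09, limma adjusted p = 0.00259) and fell in LPS compared to control (-0.74 ± 0.09, limma adjusted p = 0.0014). In LPS+M it rose compared to LPS (0.85 ± 0.09, limma adjusted p = 0.000777) and fell compared to M (-0.60 ± 0.09, limma adjusted p = 0.0054). The last of these calls rested on LPS+M replicate 2, without which the change was -0.55, under 1.5-fold. Between LPS and M the difference was -1.45 ± 0.09 (limma adjusted p = 2.85e-05). The other probe set of Cyth1, 1448997_at, lay below the filter on all arrays, at 2.24 or less. Over the 8 arrays Cytip and Cyth1 correlated at r = 0.973, a description over 8 points that fall into 4 treatment groups. A value this high was not particular to the pair, since Itgal and Icam1 correlated at 0.977. The changes that chose Cytip also enter its correlation with Cyth1.

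Promoter sequence is shown for Cytip and its binding partner Cyth1, whose windows held the matches found among the members searched. RefSeq windows of 250 bases before and 50 bases after a gene start (GRCm38.p6) were searched for 6 of the 9 members, in 8 windows. Itgal and Itgb2 had no window and Pstpip2 was left out of the search, so matches in these genes are not known. Both strands were searched for the NF-kB motif, the AP-1 motif TGANTCA, the ISRE motif GAAANNGAA and the PU.1-type ETS motif GAGGAAGT, where N is any base. The NF-kB motif was taken in a strict form that starts with GGG and ends with CC. Capitals mark the matched letters. The Cytip window lies at chr2:58160073-58160372 on the minus strand, and of the 3 Cyth1 windows the one shown lies at chr11:118212682-118212981, also on the minus strand.
Cytip: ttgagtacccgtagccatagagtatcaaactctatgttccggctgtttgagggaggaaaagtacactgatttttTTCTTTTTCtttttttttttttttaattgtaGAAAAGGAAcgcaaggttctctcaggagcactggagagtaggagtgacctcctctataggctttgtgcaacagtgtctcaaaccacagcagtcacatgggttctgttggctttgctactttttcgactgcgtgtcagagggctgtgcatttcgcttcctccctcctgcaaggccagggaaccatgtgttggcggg
Cyth1: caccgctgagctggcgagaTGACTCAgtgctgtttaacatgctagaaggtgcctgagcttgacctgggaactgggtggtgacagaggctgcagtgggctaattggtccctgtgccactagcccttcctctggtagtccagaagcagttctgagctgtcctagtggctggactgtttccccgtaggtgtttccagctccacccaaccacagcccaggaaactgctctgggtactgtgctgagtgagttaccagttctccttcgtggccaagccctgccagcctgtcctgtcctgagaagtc
The Cytip window held 2 ISRE matches, at bases 75 to 83, read on the opposite strand and set in a run of pyrimidines, and at bases 106 to 114. The Cyth1 window held 1 AP-1 match, at bases 20 to 26. None of these 4 motifs matched in the other 2 Cyth1 windows or in those of Itgam, Itga4, Icam1 and Tes. Sites that depart from these letters were not counted, so the lack of a match does not show the lack of a site. The Icam1 window holds tggaaattcc, which departs from the strict NF-kB form at its first base only. Of 32851 windows of the same length, 8.56% held the ISRE letters, 7.81% the AP-1 letters, 8.46% the NF-kB motif and 3.2% the ETS letters. The 2 genes had no motif in common, and which of its 3 starts Cyth1 uses in these cells was not measured.

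Among the chains of the β2 integrins, Itgal changed and its partner Itgb2 did not move detectably. Itgal, the alpha chain of LFA-1, read 9.80 and 9.91 in LPS+M, 9.63 and 9.62 in LPS, 9.14 and 9.23 in M, and 9.09 and 8.91 in control on probe set 1435560_at. The groups did not overlap, and the arrays with LPS were higher than those without. Itgal rose in LPS compared to control (0.62 ± 0.08, limma adjusted p = 0.0014), a call that rested on control replicate 2, without which the change was 0.54. It also rose in LPS+M compared to M (0.67 ± 0.08, limma adjusted p = 0.00145) and compared to control (0.86 ± 0.08, limma adjusted p = 0.000181). The menthol contrasts of Itgal were not called, with 0.23 ± 0.08 in LPS+M compared to LPS (limma adjusted p = 0.0649) and 0.19 ± 0.08 in M compared to control (limma adjusted p = 0.139). A second probe set, 1425367_at, lay between 3.15 and 4.10, below the filter.

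Itgb2, the shared beta chain, was the most even member. Itgb2 read 12.02 and 11.87 in LPS+M, 12.03 and 11.92 in LPS, 11.93 and 11.95 in M, and 11.94 and 11.89 in control on probe set 1450678_at. All 4 groups overlapped. The largest of its 6 fold changes was in LPS compared to control, at 0.06 ± 0.07 (limma adjusted p = 0.612), and the 95% interval of -0.11 to 0.23 lies inside 1.5-fold in either direction.

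Itgam, the alpha chain of Mac-1 and a standard myeloid marker, was highest in M and was called in none of the comparisons. Itgam read 10.01 and 9.76 in LPS+M, 9.86 and 9.62 in LPS, 10.37 and 10.22 in M, and 10.06 and 10.08 in control on probe set 1422046_at. M lay above every other array, and LPS+M overlapped LPS. LPS compared to M gave -0.56 ± 0.11 (limma adjusted p = 0.00517) and LPS+M compared to M gave -0.41 ± 0.11 (limma adjusted p = 0.042), both under 1.5-fold. Without LPS replicate 1 or without M replicate 2 the difference between LPS and M passed the fold minimum, at -0.67 and -0.63. In LPS compared to control Itgam differed by -0.33 ± 0.11 (limma adjusted p = 0.0658).

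Itga4 was the only member called lower in LPS+M compared to LPS. Itga4 read 9.09 and 9.20 in LPS+M, 9.79 and 9.69 in LPS, 9.14 and 9.16 in M, and 9.40 and 9.43 in control on probe set 1436037_at. LPS was the highest group, and both groups with menthol lay below control. The fall in LPS+M compared to LPS was just past 1.5-fold (-0.59 ± 0.07, limma adjusted p = 0.000822), and without LPS+M replicate 1 or LPS replicate 1 it was -0.54 and under the fold minimum. LPS compared to M gave 0.59 ± 0.07 (limma adjusted p = 0.000425), also just past it, and this call was lost without LPS replicate 1 (0.54), without M replicate 1 (0.58) and after a shift of all arrays to a common median (0.58). Smaller differences were measured in M compared to control (-0.26 ± 0.07, limma adjusted p = 0.0278) and in LPS compared to control (0.33 ± 0.07, limma adjusted p = 0.0115). LPS+M and M did not differ beyond their spread, at -0.0032 ± 0.07 (limma adjusted p = 0.983, 95% interval -0.16 to 0.15).

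Other probe sets of Itga4 gave the same sign with less support. Probe set 1421194_at read 7.18 and 7.11 in LPS+M, 7.63 and 7.76 in LPS, 6.96 and 7.16 in M, and 7.20 and 7.35 in control. LPS was again highest, and LPS+M compared to LPS gave -0.55 ± 0.10 (limma adjusted p = 0.00792), under 1.5-fold. Probe set 1456498_at spread more within groups, at 7.43 and 7.29 in LPS+M, 8.25 and 7.69 in LPS, 7.81 and 7.25 in M, and 8.18 and 7.63 in control, and its LPS+M compared to LPS value of -0.61 ± 0.27 was not called (limma adjusted p = 0.149). The remaining 2 probe sets lay below the filter.

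**Figure D2:**
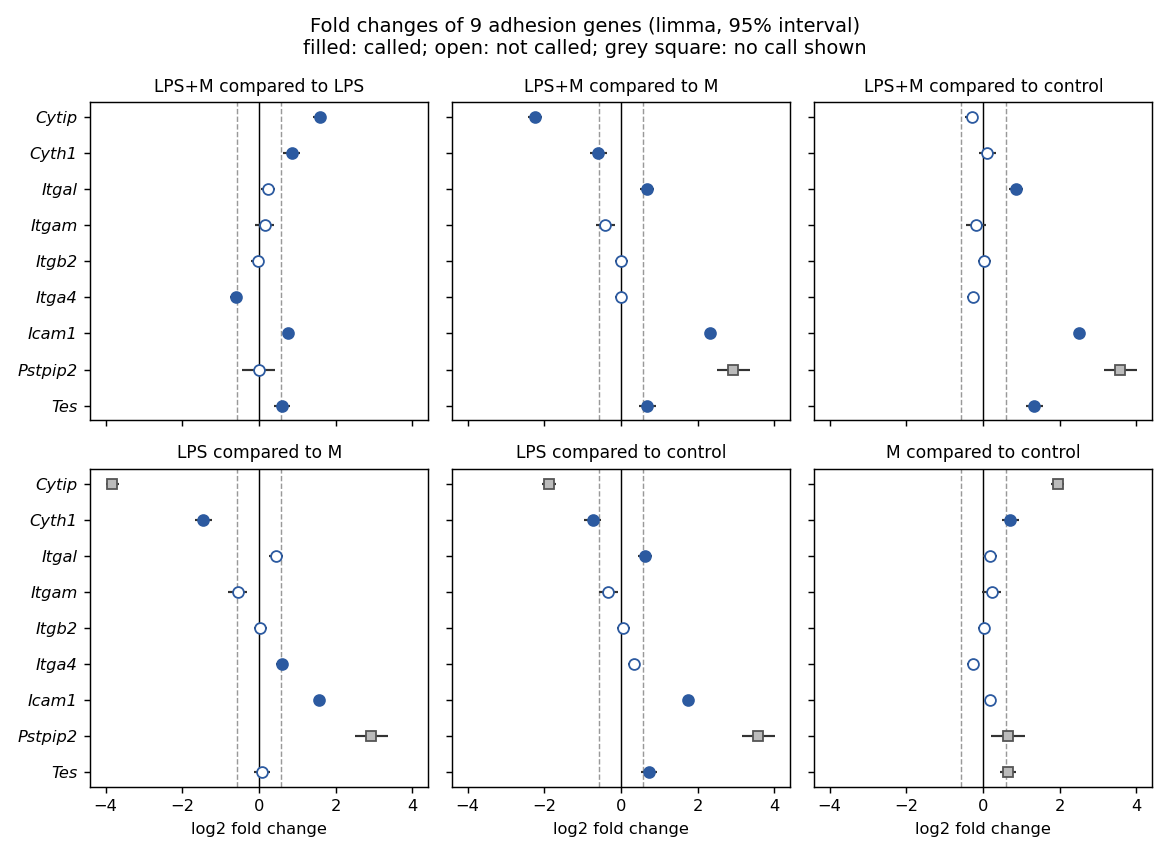
Log2 fold change (horizontal axis) of each of the 9 genes in 6 comparisons, with 95% intervals of the limma fit and dashed lines at 1.5-fold in either direction. Filled circles are called, open circles are not, and grey squares carry no call, since they chose the gene or, for Pstpip2, involve M or control arrays below the filter. Icam1 and Pstpip2 lie far to the right in the comparisons of LPS or LPS+M with M or control.

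Icam1, the ligand of LFA-1 and Mac-1, rose with LPS and rose further when menthol came first. Icam1 read 12.23 and 12.20 in LPS+M, 11.49 and 11.45 in LPS, 9.88 and 9.91 in M, and 9.72 and 9.72 in control on its one probe set, 1424067_at. The 2 arrays of a group lay close together, and no groups overlapped. Icam1 was 3.37-fold higher in LPS compared to control (1.75 ± 0.06, limma adjusted p = 2.21e-06) and 1.68-fold higher in LPS+M compared to LPS (0.75 ± 0.06, limma adjusted p = 0.000161). LPS+M was 5.01-fold above M (2.33 ± 0.06, limma adjusted p = 1.14e-06) and 5.65-fold above control (2.50 ± 0.06, limma adjusted p = 6.53e-07). Menthol by itself gave 0.17 ± 0.06 in M compared to control, which did not pass (limma adjusted p = 0.069).

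The difference between these menthol effects was tested as the interaction of menthol and LPS, that is, LPS+M compared to LPS minus M compared to control. For Icam1 it was 0.57 ± 0.08 (limma adjusted p = 0.0496), 1.49-fold and so not called. It was called in 2 of 18 alternative settings, and the adjusted p over these ran between 0.0152 and 0.227. Over all genes 0.236% were called for the interaction, and 0 of the 9 members. The other tested interactions were -0.33 ± 0.09 for Itga4 (limma adjusted p = 0.267), 0.14 ± 0.13 for Cyth1 (limma adjusted p = 0.803), and between -0.08 and 0.04 for Itgal, Itgam and Itgb2. The interaction contains the contrasts that chose Cytip, Pstpip2 and Tes, so their values are a description, at -0.36 ± 0.11 for Cytip, -0.66 ± 0.26 for Pstpip2 and -0.05 ± 0.13 for Tes.

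**Figure D3:**
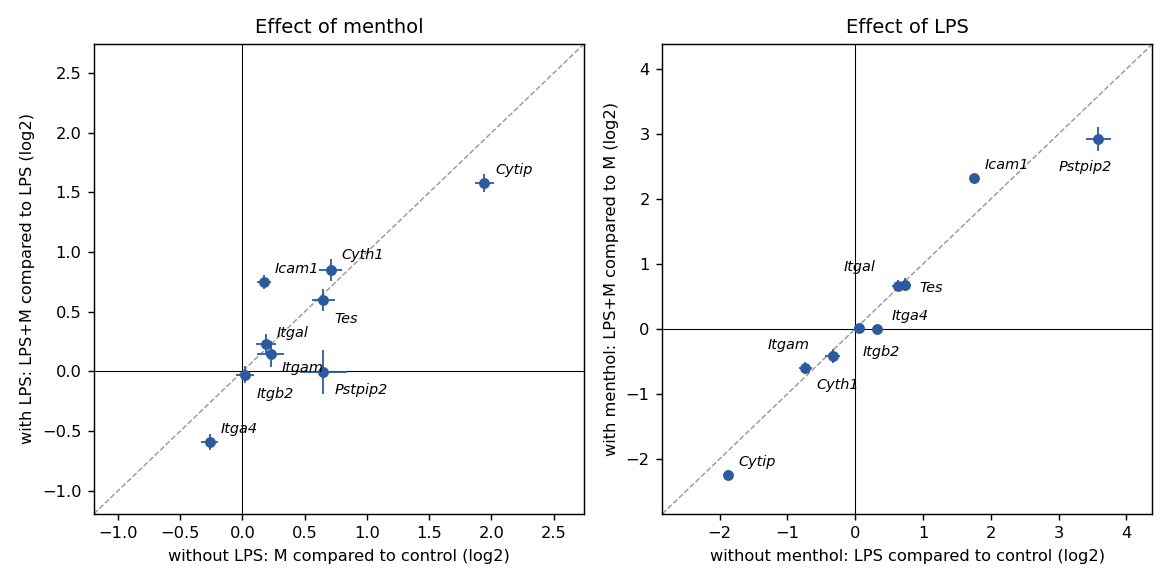
Left, log2 fold change of the 9 genes with menthol in the presence of LPS (vertical axis) and in its absence (horizontal axis); right, log2 fold change with LPS after menthol (vertical axis) and without it (horizontal axis), with standard errors and a dashed line of equal effects. Icam1 lies above the line, at 0.75 and 0.17 on the left, and Pstpip2 lies below it. The height of a gene above or below the line is its interaction, the same in both panels by construction.

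Pstpip2, which binds membrane and actin and whose loss causes bone inflammation in mice, followed LPS closely. Pstpip2 read 6.90 and 7.04 in LPS+M, 6.88 and 7.07 in LPS, 3.79 and 4.30 in M, and 3.60 and 3.18 in control on probe set 1455405_at. The arrays with LPS overlapped each other and lay far above those without, which were themselves below the average of all probe sets. The 12.0-fold rise in LPS compared to control chose the gene. Pstpip2 passed the filter through the arrays with LPS, so its differences from M and control are given with no test, and LPS+M lay 2.93 ± 0.19 above M. LPS+M compared to LPS, where all 4 arrays were above the filter, gave -0.01 ± 0.19 (limma adjusted p = 0.987, 95% interval -0.44 to 0.43), within 1.5-fold in either direction. This contrast shares the LPS arrays with the one that chose the gene.

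Menthol without LPS gave an unsteady value for Pstpip2. M compared to control was 0.65 ± 0.19, between 4 arrays that all lay below the filter, and the value was 0.39 without M replicate 2 and 0.44 without control replicate 2. A second probe set, 1421410_a_at, read 5.62 and 6.27 in LPS+M, 5.57 and 6.75 in LPS, 2.90 and 3.21 in M, and 3.24 and 3.72 in control. There M was below control by the means (-0.43 ± 0.45), and LPS+M lay 2.89 ± 0.45 above M. The mean of this probe set was below the filter. Another probe set, 1421411_at, stayed between 3.03 and 3.19.

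Tes, the focal adhesion protein, was higher with either agent and highest with both. Tes read 12.22 and 11.99 in LPS+M, 11.60 and 11.41 in LPS, 11.43 and 11.41 in M, and 10.74 and 10.80 in control on probe set 1460378_a_at. LPS and M overlapped and did not differ beyond their spread (0.08 ± 0.09, limma adjusted p = 0.522, 95% interval -0.13 to 0.30). The 1.57-fold rise in M compared to control chose the gene. Contrasts of Tes with M or with control share those arrays, so their p-values are not independent of the choice. Tes rose in LPS compared to control (0.73 ± 0.09, limma adjusted p = 0.00139) and was 2.52-fold higher in LPS+M compared to control (1.33 ± 0.09, limma adjusted p = 4.3e-05). LPS+M compared to LPS gave 0.60 ± 0.09 (limma adjusted p = 0.00323) and LPS+M compared to M gave 0.68 ± 0.09 (limma adjusted p = 0.00273). Without LPS+M replicate 1 these were 0.49 and 0.57, and without LPS replicate 2 LPS+M compared to LPS was 0.51, all under the fold minimum.

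The second probe set of Tes, 1424246_a_at, read 11.61 and 11.41 in LPS+M, 11.24 and 11.24 in LPS, 10.90 and 10.97 in M, and 10.49 and 10.57 in control. LPS lay above M here (0.30, limma adjusted p = 0.0278), and LPS+M compared to LPS was smaller (0.27, limma adjusted p = 0.0494) and not called.

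**Figure D4:**
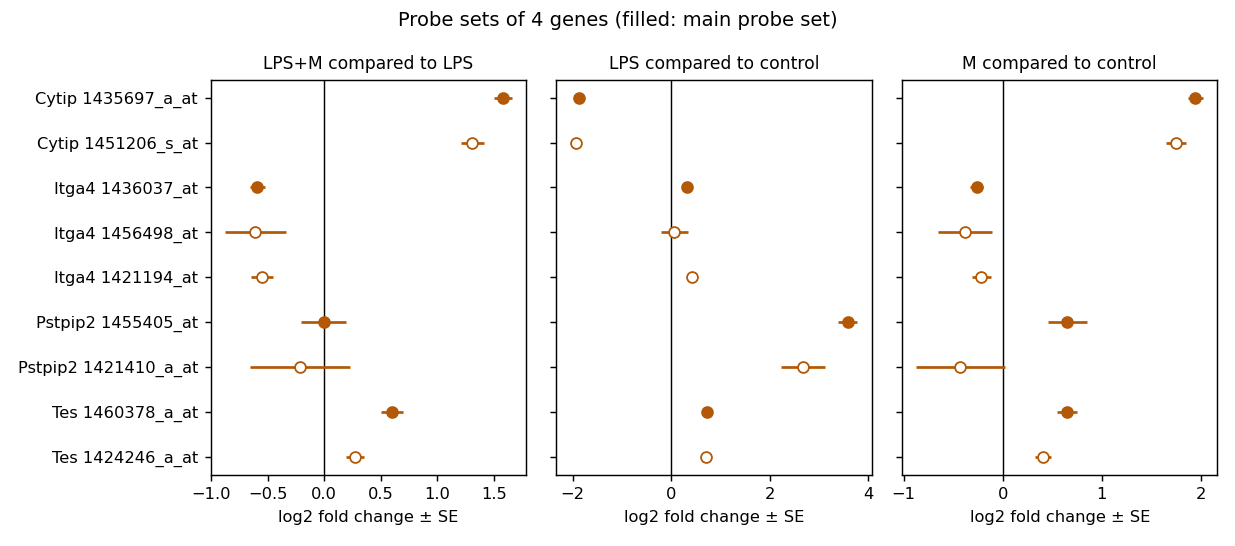
Log2 fold change with its standard error (horizontal axis) for the probe sets of Cytip, Itga4, Pstpip2 and Tes with a mean above 4.5 (vertical axis). The panels show LPS+M compared to LPS, LPS compared to control and M compared to control, with filled points for the main probe set. In each panel both Cytip probe sets have the same sign, while M compared to control changes sign between the Pstpip2 probe sets.

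Counted together, 4 of the 9 genes were called in M compared to control, all higher (Cytip, Cyth1, Pstpip2 and Tes), where 4.55% of all 8908 genes were called. In LPS compared to control Itgal, Icam1, Pstpip2 and Tes were higher and Cytip and Cyth1 lower, beside 6.13% of all genes. Since Cytip, Pstpip2 and Tes were chosen on these contrasts, nothing is read from those counts. Pstpip2 is counted here as the fit called it, although it passed the filter only through the arrays with LPS. In LPS compared to M 3 were higher (Itga4, Icam1 and Pstpip2) and 2 lower (Cytip, chosen on this contrast as well, and Cyth1), beside 11.3%. In LPS+M compared to LPS 4 were higher (Cytip, Cyth1, Icam1 and Tes) and 1 lower (Itga4), beside 6.71% of all genes. In LPS+M compared to M 4 were higher (Itgal, Icam1, Pstpip2 and Tes) and 2 lower (Cytip and Cyth1), beside 4.16%. In LPS+M compared to control the same 4 were higher and none lower, beside 9.83%. The median log2 fold change over the 9 genes was 0.23 in LPS+M compared to LPS and 0.01 in LPS+M compared to M, against 0.03 and -0.03 over all genes. These comparisons share arrays, so their counts are not independent.

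The effects of an agent with and without the other agent share no arrays and can be set side by side. The menthol pair and the LPS pair of a gene use the same arrays. The value with the other agent minus the value without it is the interaction in both pairs. The LPS pairs are therefore no separate comparison of that difference. With and without LPS, menthol gave 1.58 and 1.94 for Cytip, 0.85 and 0.71 for Cyth1, 0.75 and 0.17 for Icam1, and -0.59 and -0.26 for Itga4. With and without menthol, LPS gave -2.24 and -1.88 for Cytip, 0.67 and 0.62 for Itgal, 2.93 and 3.58 for Pstpip2, and 0.68 and 0.73 for Tes. Menthol gave -0.01 ± 0.19 and 0.65 ± 0.19 for Pstpip2, and -0.03 ± 0.07 and 0.02 ± 0.07 for Itgb2. LPS gave -0.0032 ± 0.07 and 0.33 ± 0.07 for Itga4. All of these but 0.65 and 0.33 are smaller than their standard errors, so their signs are not determined. The values of Cytip and Pstpip2 without the other agent chose those genes.

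Of the other integrin subunits, 6 of 22 listed passed the filter. In LPS compared to control 4 fell: Itga6, a laminin receptor chain (-1.02 ± 0.09, limma adjusted p = 0.000178), Itgav, a vitronectin receptor chain (-0.71 ± 0.07, limma adjusted p = 0.000536), Itga9 (-0.64 ± 0.09, limma adjusted p = 0.00189) and Itgb5 (-0.59 ± 0.08, limma adjusted p = 0.00165). Itga5, the fibronectin receptor chain, rose (0.74 ± 0.17, limma adjusted p = 0.0186), and Itgb1, the partner of many alpha chains, was not called. The call of Itga5 was lost without LPS replicate 1 (0.48), without control replicate 2 (limma adjusted p = 0.122) and with no filter (limma adjusted p = 0.0807). That of Itgb5 was lost without LPS replicate 1 (-0.55) and that of Itga9 without control replicate 1 (-0.55), both under the fold minimum. With the mean of all probe sets the values were -0.36 for Itgav and -0.52 for Itga9, also under it. Itga6 read 7.98 and 8.19 in LPS+M, 8.05 and 7.92 in LPS, 8.92 and 8.82 in M, and 9.02 and 8.99 in control, so it was low on every array with LPS. The median of the 6 was -0.62, against -0.03 over all genes, of which 6.13% were called. None of the 6 was called for menthol, either in M compared to control or in LPS+M compared to LPS.

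Among 22 tested genes of integrin activation, the fit called Sipa1l1, a GTPase-activating protein of the integrin activator Rap1, in both menthol comparisons. Sipa1l1 read 6.14 and 5.98 in LPS+M, 4.69 and 4.70 in LPS, 6.26 and 6.16 in M, and 5.44 and 5.30 in control. It rose in M compared to control (0.84 ± 0.08, limma adjusted p = 0.000677), with all 4 arrays above the filter. Both LPS arrays lay below the filter, so the differences from LPS are given with no test. They were 1.37 ± 0.08 in LPS+M compared to LPS and -0.68 ± 0.08 in LPS compared to control. With the mean of all probe sets the values of Sipa1l1 were 0.16 in M compared to control, 0.38 in LPS+M compared to LPS and -0.18 in LPS compared to control, none called. No other gene of the list was called in either menthol comparison. With LPS compared to control 2 of the 22 rose and 3 fell, Sipa1l1 counted among the latter, beside 6.13% of all genes called. Fyb, the adaptor ADAP of integrin signalling, rose by 1.08 ± 0.06 (limma adjusted p = 2.71e-05) and read 13.3 on all 4 arrays with LPS.

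Of 16 tested genes around cytohesins and ARF6, 2 rose and 1 fell in LPS+M compared to LPS, where 6.71% of all genes were called. Cyth3, a relative of Cyth1, rose (0.64 ± 0.08, limma adjusted p = 0.00168) and so did Acap1, an ARF6 GTPase-activating protein that acts in integrin recycling (0.62 ± 0.12, limma adjusted p = 0.00743). Asap1, which also acts on ARF GTPases at focal adhesions, fell (-0.66 ± 0.07, limma adjusted p = 0.000684) and was also lower in M compared to control (-1.03 ± 0.07, limma adjusted p = 0.000189). Asap1 read 9.64 and 9.54 in LPS+M, 10.27 and 10.23 in LPS, 9.70 and 9.73 in M, and 10.80 and 10.67 in control, lower on every array with menthol. Without LPS+M replicate 2 the values in LPS+M compared to LPS were 0.54 for Cyth3 and 0.50 for Acap1, under the fold minimum. With the mean of all probe sets they were 0.34 for Cyth3, 0.28 for Acap1 and -0.37 for Asap1, none called.

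Of 20 tested adhesion receptors and ligands, none was called in M compared to control or in LPS+M compared to LPS, and Cd82, a tetraspanin, rose in LPS compared to control (0.79 ± 0.08, limma adjusted p = 0.000564). Of 21 focal adhesion and podosome genes, Sh3pxd2a, the podosome scaffold TKS5, rose in LPS+M compared to LPS (0.91 ± 0.08, limma adjusted p = 0.000272) and fell in LPS compared to control (-0.60 ± 0.08, limma adjusted p = 0.00149). The fall was under the fold minimum without LPS replicate 1 (-0.52), without control replicate 1 (-0.54) and with quantile normalization (-0.55). Vasp, an actin elongation factor, rose in LPS compared to control (0.80 ± 0.07, limma adjusted p = 0.000258). In M compared to control Syk rose (0.70 ± 0.09, limma adjusted p = 0.00188), and no other gene of this list was called there. With the mean of all probe sets the value of Syk was 0.36, and that of Cd82 in LPS compared to control was 0.40. Sh3pxd2a then gave 0.45 in LPS+M compared to LPS and -0.30 in LPS compared to control. All of these were under the fold minimum.

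Of 26 tested F-BAR genes, WASP genes and partners of the PSTPIP family, Gas7, an F-BAR protein, rose in LPS compared to control (1.22 ± 0.14, limma adjusted p = 0.00081) and Inpp5d, the phosphatase SHIP1, fell (-0.78 ± 0.06, limma adjusted p = 0.000107). Ptpn22, a phosphatase of the family that PSTPIP proteins bind, fell with menthol, by 0.72 in M compared to control (limma adjusted p = 0.00134) and by 0.75 in LPS+M compared to LPS (limma adjusted p = 0.000735). Trip10 was called higher in LPS+M compared to LPS, with 8.85 and 8.49 in LPS+M and 8.04 and 8.08 in LPS. That difference was under the fold minimum without LPS+M replicate 1 (0.43) and with quantile normalization (0.58). Over all 111 tested genes of the 6 lists, 6.31% were called in LPS+M compared to LPS and 3.6% in M compared to control, close to the 6.71% and 4.55% of all genes. In LPS compared to control the share was 14.4%, beside 6.13%. The lists were written with earlier results of these arrays known, so nothing is read from these shares. The 6.31% and 14.4% also count Sipa1l1, whose differences from LPS are given with no test.

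Genes whose pattern was most like that of Cytip over the 8 arrays were Ssh2 (r = 0.987), Ctla2a (0.986), Sipa1l2 (0.984), Flot1 (0.984) and Stk17b (0.980), among 512 genes whose group means span at least 1. For Pstpip2 they were Zc3h12c (0.993), Nfkbiz (0.993), Fyb (0.992), Ehd1 (0.991) and Ptpn14 (0.991). For Tes they were Rhbdf2 (0.991), Sqstm1 (0.991), Fmnl2 (0.983), Nfe2l1 (0.982) and Slc2a1 (0.980). Ssh2 averaged 10.1 in LPS+M, 9.23 in LPS, 10.9 in M and 10.3 in control, a narrower range than that of Cytip in the same order. These correlations describe 8 points in 4 treatment groups and carry no test.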

How the data were processed

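Total RNA of 8 samples of RAW 264.7 cells, 2 in each of 4 groups, was hybridised to Affymetrix mouse arrays. The deposited values are log2 signals that the authors computed with GC-RMA (version 2.10.0, under version 2.6.1 of R, per the submitters' processing notes). GC-RMA corrects background by probe GC content, quantile normalizes and summarises probe sets. This pulls low signals together, so fold changes of dim probe sets are uncertain. Depth has no counterpart on arrays, and their number limits the precision.

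The values were used as deposited. Probe sets with 1 symbol (34945) were kept, those with several (932), none (9160) or control status (64) left out. A gene took the values of its brightest probe set on average, and those above 4.84 were fitted with limma 3.58.1 (lmFit, eBayes) in R 4.3.3 on all 8 arrays, with 1 coefficient per group, 4 residual and 3.778 prior degrees of freedom. Calls needed a Benjamini-Hochberg adjusted p under 0.05 over all 8908 genes and at least 1.5-fold. With 2 arrays a side, the smallest two-sided p of an exact permutation test is 0.333, so none was run. Values of further probe sets came from a fit of every probe set by itself. The script was tested on simulated data.

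The members, gene lists and motifs were chosen with earlier results of these data known. Named were every member, up to 4 called genes of a list with the largest change, all genes of lists with under 13 tested genes, and the 5 genes most correlated with Cytip, Pstpip2 and Tes. Alternatives were other filters, probe set rules, scalings, the t-test of the methods, other limma options, fold minimums, a replicate block, and leaving out each array.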

Additional observations from a re-analysis of the deposited data

Results flagged for a closer look

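The interaction of menthol and LPS for Icam1 had an adjusted p under 0.05, but it was under 1.5-fold and not called. The log2 fold change was 0.75 in LPS+M compared to LPS and 0.17 in M compared to control, and the interaction was 0.574 ± 0.08 (limma adjusted p = 0.0496), 1.49-fold. With every probe set fitted by itself the adjusted p was 0.121, and over all 18 alternatives it ran between 0.0152 and 0.227. M and LPS+M may also differ in time after menthol, which cannot be told apart from LPS here.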

How the results depend on the processing

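Over 21 alternative settings, 1202 of 1296 values of single members kept their side of the threshold, 83 lost a call, 11 gained one and none of the called values changed sign. Of 1575 values of called list genes and markers, 1370 kept their call and 205 lost it. With Benjamini-Hochberg adjustment the t-test of the methods called 0 members, and 0 of all genes, in each of the 6 group comparisons; at an unadjusted p under 0.05 it called between 217 and 640 of all genes, 3 members in LPS compared to control and 3 in LPS+M compared to LPS. A fold minimum of 2 left 3 members in LPS compared to control, 1 in M compared to control, 1 in LPS+M compared to LPS and 3 in LPS+M compared to M. The mean of all probe sets, which brings in probe sets below the filter, left 1 in M compared to control and 2 in LPS+M compared to LPS. For the interaction, quantile normalization and no fold minimum each gave 1 member, Icam1, in place of 0. Leaving out each array in turn gave 3 to 5 members in LPS+M compared to LPS, with 3 without LPS+M replicate 1.

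The labels do not say that replicate numbers mark a shared batch, and same-numbered arrays deviated together only weakly (r between -0.121 and 0.186). With the replicate block the counts were 5 in LPS+M compared to LPS, 6 in LPS+M compared to M, 4 in LPS+M compared to control, 5 for LPS over M, 6 for LPS over control, 4 for M over control and 0 for the interaction, as without it. Signals near background, as for Pstpip2 without LPS, limit what can be read from small changes.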

Other observations

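One more probe set, 1447786_at, carries the symbols Gm38514 and Cyth1 together and was left out of all comparisons. It read 3.96 and 4.04 in LPS+M, 3.96 and 4.01 in LPS, 3.92 and 3.94 in M, and 3.94 and 3.94 in control, below the filter on every array.

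Of the 9 macrophage markers, Adgre1 and Fcgr3 were called with LPS. Adgre1, the surface protein F4/80, was higher in LPS compared to control (0.95 ± 0.07, limma adjusted p = 6.8e-05), and Fcgr3, a receptor for antibody, was lower (-0.89 ± 0.10, limma adjusted p = 0.000566). Neither was called in M compared to control or in LPS+M compared to LPS.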
